A study of Mus musculus with 6 samples.

Results

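Klf9 and 9 further genes for Krüppel-like factors (Klf2, Klf3, Klf4, Klf5, Klf6, Klf7, Klf10, Klf11 and Klf13) were followed through a map of Bcl6 binding in mouse cortical progenitors. The members were given by name, chosen by their listed peaks and fold enrichment in these same data, and their peaks were those that the authors' gene list ties to them. These 10 genes stand among 21900 protein-coding genes. The list gave 16 of the 3878 peaks to 7 of them, and Klf5, Klf6 and Klf13 were listed for none. Over all protein-coding genes 20.1% had a listed peak, and nothing is read from the members' larger share because the listed peaks were used to choose them. Klf9 was singled out because it holds the highest enrichment of the data, so that peak's height is a description and not a test.

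The cells were A2 lox.Cre Bcl6 progenitors, made from embryonic stem (ES) cells that carry a tetracycline-inducible Bcl6 transgene. The ES cells had been kept on irradiated fibroblasts and were differentiated with cyclopamine, an inhibitor of hedgehog signalling, at 400 ng/ml from day 2, until the medium was changed back after 10 days. All 6 libraries came from day 12 after 24 h of doxycycline at 1 µg/ml, so every library, input included, had the transgene switched on. There were 3 libraries from immunoprecipitation with a Bcl6 antibody and 3 of input DNA, and the authors pooled each set before calling peaks. The pooled values carry no replicate error, and uninduced cells were not analysed here. No RNA was measured, so neither the cell type nor the expression of any Klf gene could be checked against markers. After removal of tags at the same position, 11718276 ChIP tags (20.6%) and 5048582 input tags (39.4%) were left.

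Krüppel-like factors are zinc finger proteins that bind GC-rich and CACCC boxes near genes, and relatives compete for the same boxes as activators or repressors. In the nervous system Klf9 is induced by thyroid hormone and glucocorticoids and is known for its part in neuronal maturation, while Klf7 is known for promoting axon growth. In ES cells Klf2, Klf4 and Klf5 belong to the pluripotency network. Bcl6 is a zinc finger repressor whose preferred DNA sequence contains TTCCNNGAA, letters that overlap the site read by STAT factors.

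The sequence under the highest peak was available because the peak lies over the start of a long noncoding RNA gene. The summit of the peak, on chromosome 19 at 23076032 in mm10, was inside the RefSeq promoter window of C330002G04Rik (GRCm38.p6, chr19:23075856-23076155, minus strand), 127 bp upstream of that transcript's start site. The window is printed 5′ to 3′ along the minus strand, with the match to TTCCNNGAA in capitals.

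C330002G04Rik: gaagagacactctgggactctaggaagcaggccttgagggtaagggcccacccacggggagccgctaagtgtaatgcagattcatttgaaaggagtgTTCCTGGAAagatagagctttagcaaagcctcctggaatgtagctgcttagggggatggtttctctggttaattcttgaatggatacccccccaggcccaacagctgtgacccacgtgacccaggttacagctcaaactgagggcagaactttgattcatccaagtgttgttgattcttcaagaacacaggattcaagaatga

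The match, TTCCTGGAA, spans 23076050 to 23076058, and its middle base lies 22 bp from the summit. It also fits the narrower TTCCTNGAA, each match of which is also one of TTCCNNGAA, but not TTCCTAGAA (0.411% of all windows). Searched on both strands, TTCCNNGAA occurred in 4.81% of all 32851 promoter windows and TTCCTNGAA in 1.59%. Over the whole map, 1001 peaks had their summit inside a promoter window, and in 57 of them (5.69%) that window held TTCCNNGAA. Of the 19 among these over 50-fold 6 did (31.6%), the Klf9 peak being 1 of them, and these shares were not tested. The window had 49.3% G and C, against a median of 52.7% over all windows. A match of letters does not show which protein was bound there.

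The promoter windows of 5 members also lay entirely inside a peak. They are printed because the data bear on them, in the order of the enrichment of the peak that covers them, and the capitals mark GGGCGG and CCACCC boxes on either strand. The windows are chr1:64121340-64121639 (Klf7, minus strand), chr19:23140976-23141275 (Klf9, plus), chr5:64803271-64803570 (Klf3, plus), chr12:24651121-24651420 (Klf11, plus) and chr8:72318812-72319111 (Klf2, plus).

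Klf7: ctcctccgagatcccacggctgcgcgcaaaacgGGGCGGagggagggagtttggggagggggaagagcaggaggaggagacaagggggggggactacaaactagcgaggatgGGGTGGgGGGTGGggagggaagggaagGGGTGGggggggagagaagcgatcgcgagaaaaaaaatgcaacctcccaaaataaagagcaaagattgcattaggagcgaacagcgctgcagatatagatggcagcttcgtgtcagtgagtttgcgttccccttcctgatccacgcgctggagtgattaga

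Klf9: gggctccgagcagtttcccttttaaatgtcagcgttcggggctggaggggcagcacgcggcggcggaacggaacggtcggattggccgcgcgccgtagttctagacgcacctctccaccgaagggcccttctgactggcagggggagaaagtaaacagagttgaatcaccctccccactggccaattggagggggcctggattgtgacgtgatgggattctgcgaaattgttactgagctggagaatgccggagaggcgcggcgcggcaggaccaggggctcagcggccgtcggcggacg

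Klf3: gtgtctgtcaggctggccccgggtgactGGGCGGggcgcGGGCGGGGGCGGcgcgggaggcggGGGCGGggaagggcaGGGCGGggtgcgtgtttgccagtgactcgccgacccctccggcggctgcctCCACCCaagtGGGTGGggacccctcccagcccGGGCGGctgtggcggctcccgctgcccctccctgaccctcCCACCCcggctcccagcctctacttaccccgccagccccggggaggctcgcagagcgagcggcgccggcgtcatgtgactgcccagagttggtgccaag

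Klf11: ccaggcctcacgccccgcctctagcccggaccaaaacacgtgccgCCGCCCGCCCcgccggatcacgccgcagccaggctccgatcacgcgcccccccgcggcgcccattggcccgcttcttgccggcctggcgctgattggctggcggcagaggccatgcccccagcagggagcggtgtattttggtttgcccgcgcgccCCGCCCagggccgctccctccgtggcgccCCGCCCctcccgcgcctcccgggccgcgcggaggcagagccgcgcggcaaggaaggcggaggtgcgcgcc

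Klf2: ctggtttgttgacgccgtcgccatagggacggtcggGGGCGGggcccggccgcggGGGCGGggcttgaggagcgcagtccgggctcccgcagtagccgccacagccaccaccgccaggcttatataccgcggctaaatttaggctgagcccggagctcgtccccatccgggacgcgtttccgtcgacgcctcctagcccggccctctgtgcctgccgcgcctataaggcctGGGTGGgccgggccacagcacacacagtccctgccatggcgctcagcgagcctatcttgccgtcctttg

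None of these 5 windows held TTCCNNGAA, nor did those of Klf4, Klf6 and Klf13, which no peak covered. Only 4.81% of all windows held it, so nothing is read from its absence in 8. Klf5 and Klf10 had no window in the table. The boxes that Klf and Sp proteins are known to bind were common. GGGCGG stood in 7 of the 8 member windows, against 35.7% of all windows, and CCACCC in 4 of 8, against 31.5%. The 8 windows were also richer in G and C, at 58.3 to 77.7%, than the median of 52.7% over all windows. These shares were not tested. The Klf9 window was the only one of the 8 with neither GGGCGG nor CCACCC. It did hold the shorter CACCC, which was not counted. Klf3 had the most boxes, with 6 of GGGCGG and 3 of CCACCC. Klf3 was also the only member with a peak summit inside its own window.

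Klf9 carried 6 peaks spread over 95.1 kb of chromosome 19, 3 upstream of its transcription start site (TSS), 1 over it and 2 downstream. They are described from upstream to downstream, each with its tag count and the exact 95% Poisson interval, which covers counting error only. The first, from 23075226 to 23076695, reached 269-fold over input with 287 tags (255 to 322) in 1470 bp, and its summit lay 65.2 kb from the TSS. The second, from 23094410 to 23095809, reached 53.2-fold with 190 tags (164 to 219), and its summit lay 46.1 kb from the TSS in DNA with no gene in the RefSeq table. These were the only 2 of the 16 member peaks over 50-fold, where 3.12% of all peaks were, and the first of them was used to choose the members.

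The remaining 4 Klf9 peaks were of ordinary height, between 15.99- and 25.4-fold beside a median of 21.3-fold and quartiles of 16.8 and 27.2 over all peaks. The third, from 23132752 to 23137335, was broad at 4584 bp and had 205 tags (178 to 235) but 16.7-fold enrichment. It covered the whole of 2410080I02Rik, a long noncoding RNA gene of 2614 bp, and its summit was 7868 bp upstream of the Klf9 TSS. The fourth, from 23140405 to 23143451, covered the TSS itself at 25.4-fold with 148 tags (125 to 174), and its summit was 278 bp upstream of the TSS, just outside the printed Klf9 window. The fifth, from 23151388 to 23153266, lay within the gene body at 15.99-fold and 67 tags (51.9 to 85.1). The last, from 23169287 to 23170356, began 1158 bp beyond the end of the gene at 24.0-fold and 35 tags (24.4 to 48.7).

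**Figure D1:**
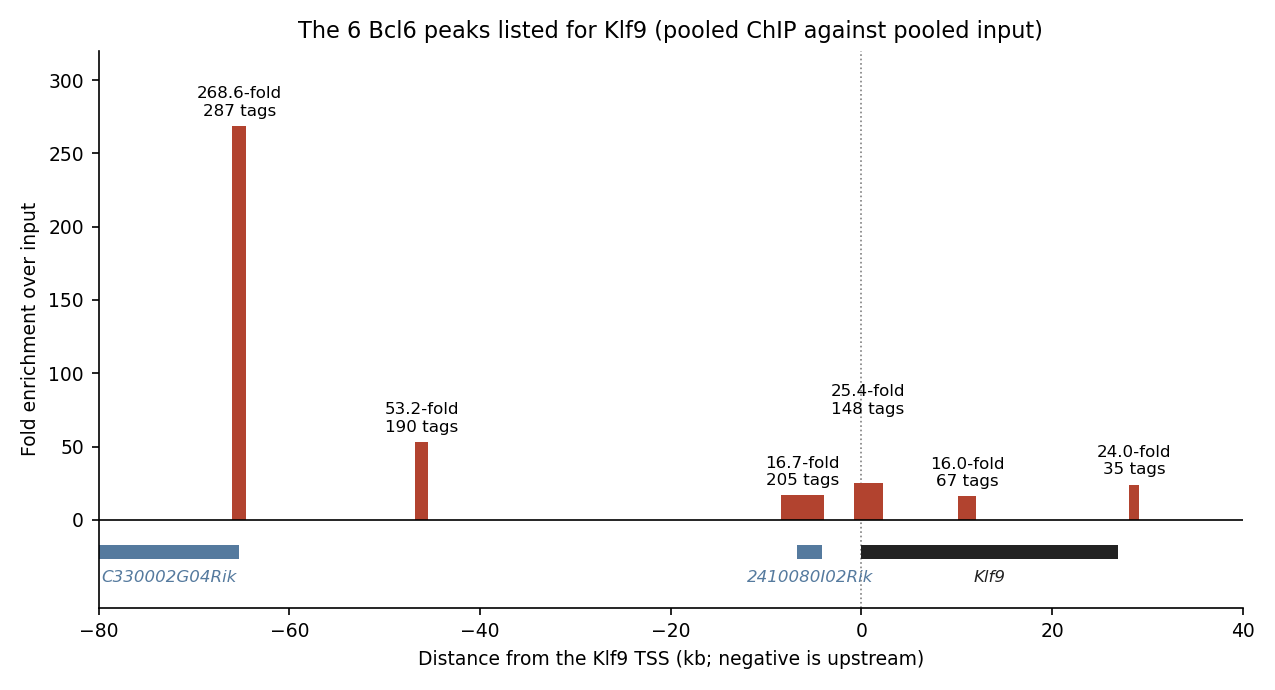
Fold enrichment over input (y axis, linear) of the 6 peaks listed for Klf9 against distance from the Klf9 TSS in kb (x axis), with bar width equal to peak width and gene bodies drawn below; C330002G04Rik continues to the left of the axis. The bar of 268.6-fold stands at the right-hand end of C330002G04Rik, and the 4 bars nearest the Klf9 gene lie between 15.99- and 25.4-fold.

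The highest Klf9 peak was thus 5.05 times the second and 10.6 times the peak over the promoter in fold enrichment. By tags the contrast was smaller, 287 against 205 in the broad peak at 2410080I02Rik. Per kb of width the first held 195 tags, the second 136 and the rest 32.7 to 48.6, beside a median of 39.97 over all peaks. Together the 6 peaks held 932 tags, 47.5% of those in all member peaks.

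In fold enrichment the first Klf9 peak ranked 1st in the data, and the peak ranked 3 was one of 198-fold listed for Asb13 and Calml3. Ranked by the p-value score (−10 log10 p) the same Klf9 peak came 4th with 1143, by tags per kb 3rd, and by tag count 71st. Its empirical FDR in the authors' table was 25%, the highest of any member peak, and the other 15 had 0.58 to 2.71%. The 38 peaks with an FDR over 5% all ranked 39 or higher by score and included 24 of the 25 highest. For each of the 100 highest-scoring peaks, the FDR times the rank by score came within 0.05 of a whole number, which for the Klf9 peak was 1 in 4.

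No other peak lay near the 6. The next peak upstream was 1.26 Mb away and the next downstream 1.05 Mb. Each of the 6 therefore had its 5 fellows as the only peaks within 100 kb, a distance chosen after the values were seen, and 7.74% of all peaks had 5 or more neighbours within it. Among the other members, the broad Klf2 peak also had 5 such neighbours. The gene list also tied the 3 upstream Klf9 peaks to the cation channel gene Trpm3, whose listed TSS was 937 to 996 kb away. It tied the last 2 Klf9 peaks to the chromosome maintenance gene Smc5, at 104 and 122 kb. The list is a rule of distance, and which gene a site acts on was not measured.

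Some distant peaks lay over the start of another transcript. Of the 1280 peaks centred over 5 kb from every listed TSS, 11.8% overlapped a RefSeq promoter window. Among the 19 of these above 100-fold the Klf9 peak at C330002G04Rik was the only one (5.26%). That peak was chosen for its fold, the count is small, and the difference between these shares was not tested. Of the 9 member peaks over 5 kb away 3 overlapped such a window, those at C330002G04Rik, 2410080I02Rik and an inner start site of Tbc1d1.

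Few genes had as many peaks as Klf9, 6 of the 4540 listed (0.132%) with at least that number. The 4 others with exactly 6 were Rere, Tfap2c, Zmiz1 and Zmynd8, and their strongest peaks reached 28.7-, 34.9-, 35.5- and 31.9-fold. In all 4 the ratio of the first to the second peak was smaller than in Klf9, the widest pair being 35.5- and 27.5-fold in Zmiz1. Klf9 was chosen for the height of its first peak, which enters that ratio. This comparison and those below are therefore descriptions only. Likeness to Klf9 was measured over the 57 other genes with at least 4 peaks and their strongest over 5 kb away, as the log2 ratio of strongest folds. Trpm3 came first at 0 because it is listed for the same peak. Next were Pim1, a kinase gene (166-fold at 91.3 kb, log2 ratio 0.69), Zfp36l1, an RNA-binding protein gene (96.0-fold at 771 kb, 1.48), the mitochondrial exonuclease gene Mgme1 (76.8-fold at 114 kb, 1.81) and Sox2, a progenitor transcription factor gene (55.9-fold at 95.1 kb, 2.27). Pim1 was also the nearest of the last 4 in the step from first to second peak, 4.33 times against 5.05 in Klf9. However, the strongest peaks of Pim1 and Zfp36l1 each lay closer to the listed TSS of another gene. Klf9, by contrast, was the nearest listed gene for its own strongest peak.

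**Figure D2:**
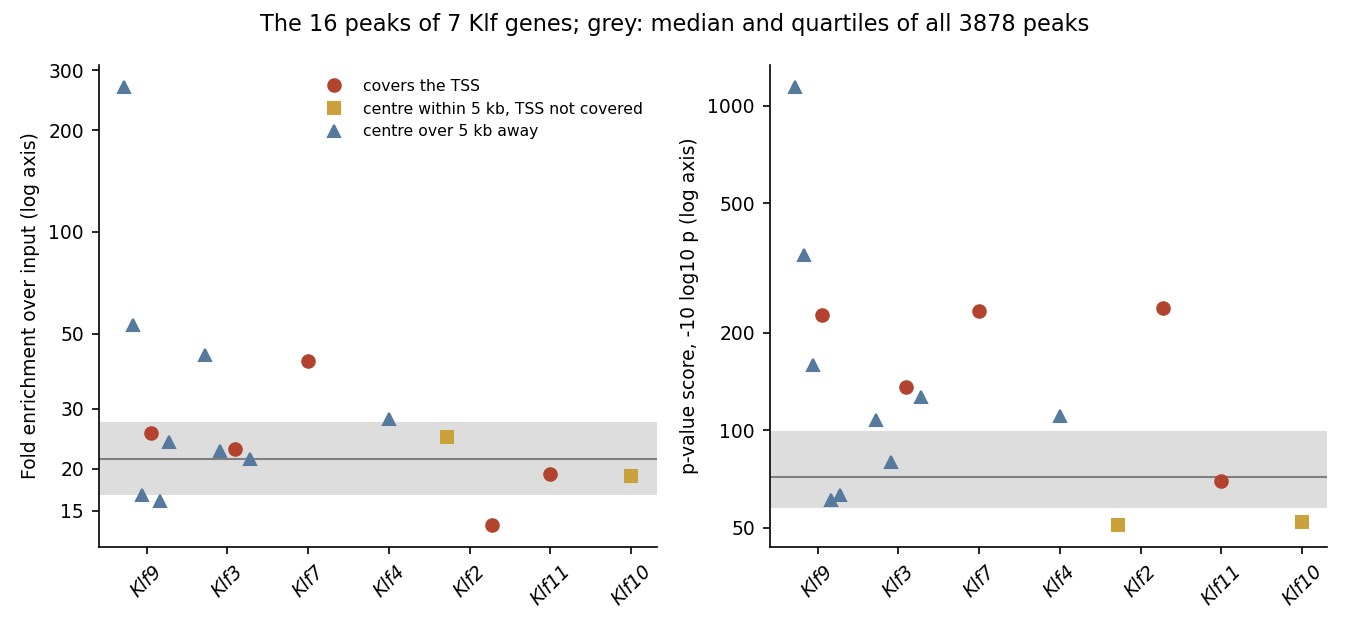
Fold enrichment (left) and p-value score (right), both on log axes, for each of the 16 peaks of the 7 listed members, with the median and quartiles of all 3878 peaks in grey; symbols give the position of the peak relative to the gene's TSS. Within each gene the peaks run from upstream to downstream, and the 2 Klf9 peaks at the left of both panels lie above every other member peak.

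Across the 16 member peaks the median was 23.4-fold (range 13.6 to 269), and it was 22.7-fold for the 10 peaks of genes other than Klf9, beside 21.3-fold over all peaks. In score the members' median was 119, and 109 without Klf9, beside 71.7 over all. The members' peaks lay at promoters in 4 cases (25%) with the centre within 1 kb of the TSS, beside 56.0% of all peaks. A further 3 were 1 to 5 kb away, 5 were 5 to 50 kb away and 4 were over 50 kb away. The shares carry no test because the genes were chosen with their peaks known.

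Klf7 had the strongest promoter peak of the members by fold. It ran from 64120737 to 64122815 on chromosome 1, at 41.5-fold with 163 tags (139 to 190) and a score of 233, and ranked 227th of all peaks by fold. The summit was 193 bp downstream of the TSS. The peak also covered the start of Gm35880, a long noncoding RNA gene on the other strand, whose promoter window overlaps that of Klf7. The data cannot assign the peak to one of these starts.

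Klf3, which encodes a repressor that recruits CtBP, had 4 peaks. Its promoter peak on chromosome 5, from 64802168 to 64803905, had 22.8-fold, 109 tags (89.5 to 131) and its summit 192 bp upstream of the TSS. A second lay within the gene, with its summit 8422 bp downstream of the TSS, at 21.3-fold and 79 tags (62.5 to 98.5). The tag intervals of these 2 peaks overlapped. The promoter peak also overlapped Gm38457, a gene of the RefSeq table that starts or ends within it, and the peak inside Klf3 was listed for the toll-like receptor gene Tlr1 as well, at 121 kb.

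The strongest peak listed for Klf3 was far from it. It ran from 64230000 to 64230900, 573 kb upstream of the Klf3 TSS, and reached 43.3-fold with 42 tags (30.3 to 56.8). Its summit lay inside Tbc1d1, a gene for a Rab GTPase-activating protein, 46 bp upstream of an inner RefSeq start site of that gene. The fourth, at 421 kb upstream and 22.6-fold with 43 tags (31.1 to 57.9), lay in the long noncoding RNA gene Gm43837. Tbc1d1 was the nearer listed gene for both, at 70.2 and 222 kb from its listed TSS.

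Klf2 and Klf4, genes of the pluripotency network, had peaks in different arrangements. Klf2 had a broad peak on chromosome 8 from 72318393 to 72325356, 6964 bp wide, which covered 100% of the 2593 bp gene. It had the most tags of any member peak, 385 (347 to 425), and a score of 237, but the lowest fold, 13.6. Its centre lay 2841 bp downstream of the TSS while its summit was at 730 bp, so the promoter was covered although the distance from the centre does not count it as a promoter peak. The list tied this peak to Eps15l1 too, at 99.6 kb. A narrow second peak had its summit 2780 bp upstream, at 24.7-fold with 35 tags (24.4 to 48.7) and a score of 50.9, near the lowest in the data (50.03).

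Klf4 had a single peak and none at its promoter. On chromosome 4 from 55475314 to 55476263, it began 50.9 kb beyond the end of the gene, at 27.9-fold with 75 tags (58.99 to 94.01). Its 78.9 tags per kb were exceeded among the member peaks only by the first and second peaks of Klf9. The DNA repair gene Rad23b was listed for it as well, at 126 kb.

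Klf10 and Klf11, related genes induced by TGF-beta whose products recruit the corepressor Sin3a, had 1 peak each near the TSS, both below the median of all peaks. The Klf11 peak, from 24650781 to 24652451 on chromosome 12, covered the TSS at 19.3-fold with 52 tags (38.8 to 68.2). The Klf10 peak, from 38298706 to 38299882 on chromosome 15, lay wholly inside the gene, beginning 825 bp past the TSS, at 19-fold with 48 tags (35.4 to 63.6). Their tag intervals overlapped. The Klf10 peak also overlapped the long noncoding RNA gene Gm35248 and was listed for Odf1, at 80.1 kb. The score of the Klf10 peak, 52.2, was also near that lowest value.

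**Figure D3:**
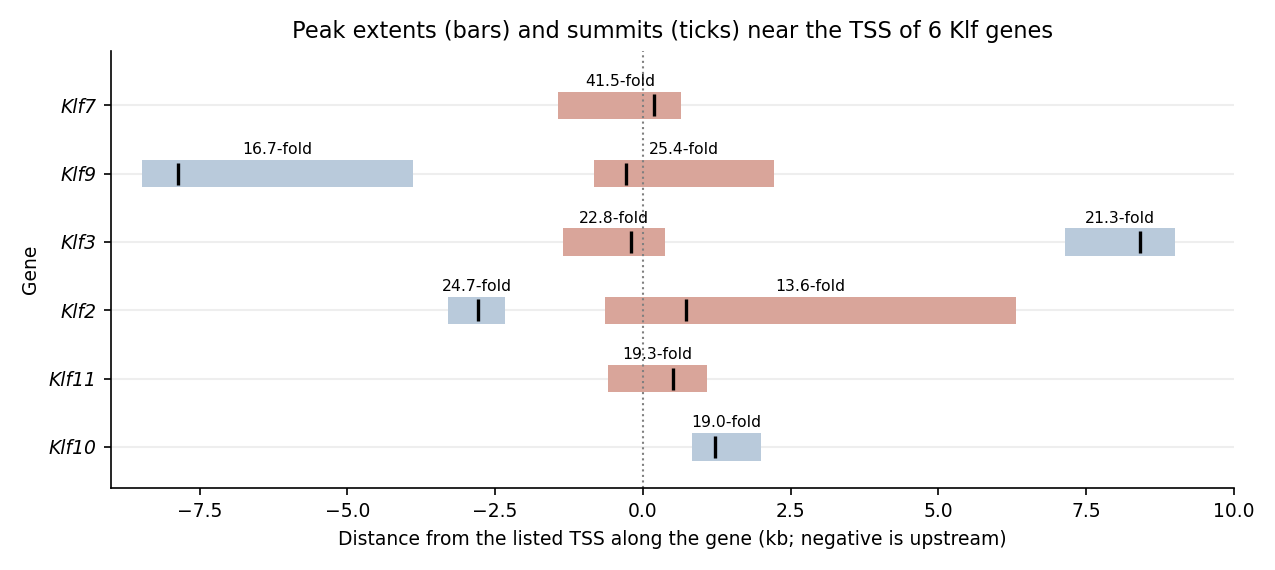
Extents of the peaks (bars) and their summits (ticks) between 9 kb upstream and 10 kb downstream of the listed TSS for 6 members, with fold enrichment above each bar and each gene drawn in its direction of transcription. Bars that cover the TSS are red and the others blue: Klf7, Klf9, Klf3, Klf2 and Klf11 have a red bar and Klf10 does not.

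Of the 3 members without a listed peak, Klf13, a close relative of Klf9, nevertheless had peaks in its gene body. A peak from 63885414 to 63886430 on chromosome 7 crossed the end of the gene and a second from 63886705 to 63889504 lay just inside it, both at 18.1-fold, with 42 and 91 tags. Their centres were 53.0 and 50.8 kb downstream of the Klf13 start. The authors' list gave both to E030018B13Rik, at 30.9 and 28.8 kb, and Otud7a, at 441 and 443 kb. Klf5, of the pluripotency network, had its nearest peak 198 kb away at the shared promoter of Dis3 and Pibf1. The peak nearest to Klf6 was 2.15 Mb away and was the 198-fold peak listed for Asb13 and Calml3.

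The wider family was counted beside the members. Of 17 Klf genes in the gene table, 10 had a listed peak, beside 20.1% of all protein-coding genes. Nothing is read from that count either, since the list was drawn up with the peaks known. The 3 outside the members were Klf8, Klf12 and Klf15, with 4 peaks of 12.2- to 29.6-fold and a median of 14.8-fold. Klf12, a repressor gene, had a peak of 12.2-fold listed 135 kb upstream of its TSS but centred 635 bp inside the upstream end of its RefSeq gene body, so the listed distance depends on the start site used. Klf8 had 29.6-fold on 23 tags inside its gene, and Klf15 had 14.9-fold at 29.7 kb and 14.6-fold at 2488 bp upstream of its listed TSS. The 14.9-fold peak was listed nearer to another gene, at 7.15 kb. The 14.6-fold peak was centred inside the RefSeq gene body of Klf15. Klf1, Klf14, Klf16 and Klf17 had no listed peak. In the sister family of Sp factors, which bind the same GC boxes, 6 of 9 genes had a listed peak, the highest of 22.2-fold at Sp3, and Sp1 and Sp7 shared 1 peak of 15.96-fold.

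**Figure D4:**
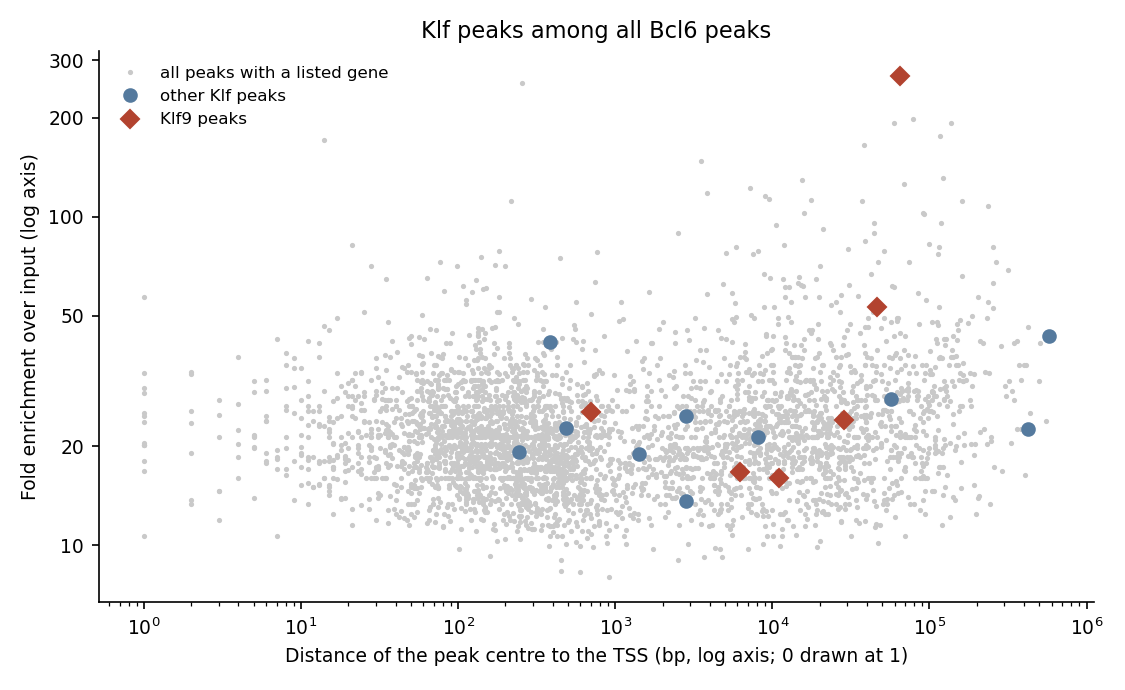
Fold enrichment (y axis, log) against distance of the peak centre to a TSS (x axis, log) for all peaks with a listed gene (grey, nearest listed TSS), the Klf9 peaks (red diamonds) and the other member peaks (blue circles, both placed by the distance to the Klf gene). The 269-fold Klf9 peak is the highest point, while most other member peaks fall within the grey cloud.

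Genes around the Klf proteins were drawn from 4 lists of 32 genes, of which 16 had a listed peak, beside the 20.1% of all protein-coding genes. These lists too were drawn up with earlier results known. All 7 pluripotency partners of Klf2, Klf4 and Klf5 had a listed peak, and 2 had one within 1 kb of the TSS. The share of all genes with a peak that close was not computed. Their 23 peaks had a median of 19.2-fold, beside 21.3-fold over all peaks. The strongest were listed for Sox2 (55.9-fold, 95.1 kb) and Zfp42 (37.4-fold, 13.9 kb). Of 13 corepressors and partners, 6 had one, among them Sin3a (25.7-fold, 301 bp from the TSS), and the strongest were at Ctbp2 (34.0-fold, 100 kb) and the ubiquitin ligase gene Wwp1 (30.3-fold, 218 bp). Of 7 hormone receptor genes that act on Klf9, 2 had a promoter peak, the glucocorticoid receptor gene Nr3c1 (15.96-fold) and the thyroid hormone receptor gene Thra (13.3-fold). The Thra peak had 36 tags, and its score, 50.4, was near the lowest in the data (50.03). Among the Egr genes and Wt1, zinc finger relatives, Egr1 alone of 5 was listed, at 16.5-fold. The shares of the receptor list (28.6%) and of this last list (20%) were near that of all genes.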

How the data were processed

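The series holds 3 Bcl6 ChIP libraries and 3 input libraries, pooled by the authors. Bowtie and mm10 are named in the submitters' processing notes. Peaks were called with MACS 1.4.2 at a p-value cutoff of 1e-05 with 1 tag kept per position, per the file headers. The deposited table gives raw counts of pooled ChIP tags, fold enrichment as a ratio over local input, and an FDR in percent. The authors' p-value score (−10 log10 p) was read from the column order and its minimum of 50.03, because a spreadsheet had overwritten its name. Genes and distances to a TSS are the deposited output of GREAT 3.0.0, whose peak numbers follow the rows of the peak table.

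Ranks, tag densities, summit distances and exact Poisson intervals (95%) were computed in Python 3.11.15 with pandas 2.3.3 and scipy 1.17.1. Each TSS was placed from the peak centre and the listed distance. Gene bodies and promoter windows (250 bases before to 50 after a start) came from RefSeq tables of GRCm38.p6, the assembly of mm10, which give no exons or UTRs. The motif search, tested on simulated data, found 100% of 200 motifs planted in windows of 300 bases. The members and gene lists were chosen with earlier results of these data known, so no test was run on them. Named were all 10 members, family genes lacking a peak, genes sharing a member's peak, the peaks ranked 2 and 3 by fold (the former is not reported here), the 5 genes most like Klf9, and the 2 genes with the strongest peaks of each other list. Gm38457, Gm35248, Gm35880, Gm43837, Rere, Tfap2c, Zmiz1, Zmynd8, Sin3a, Dis3, Pibf1, E030018B13Rik and Otud7a were named after their values were seen. Alternatives were other peak thresholds, assignments, promoter distances, rankings and motifs.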

Additional observations from a re-analysis of the deposited data

How the results depend on the processing

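No paired analysis was possible because the authors pooled the libraries, and for the same reason no replicate could be left out. Of 22 alternatives that could move a value, 17 stayed within 1.5 times the value reported, which was the tolerance used for values without replicates. The 2 narrower Bcl6 motifs could only give 0 in the member windows, as TTCCNNGAA did, and say nothing about stability. The strongest Klf9 peak was first by fold but 4th by p-value score, 3rd by tags per kb and 71st by tag count. Klf family genes with a peak fell from 10 to 6 with only the peaks at or above the median score. Member peaks at promoters rose from 4 to 7 with a distance of 5 kb in place of 1 kb. With an FDR of at most 5%, the only member peak lost of 16 was the strongest one, which left 5 for Klf9. Counting peaks that cover the TSS, an alternative chosen after seeing the data, gave 5 promoter peaks, and so did the summit within 1 kb. Another added count, of Klf genes with a peak over the gene body, gave 10 as well, with Klf13 in and Klf4 out. Peaks near the cutoff included those of Klf10, Klf8 and Thra, the weaker one at Klf15 and the narrow one at Klf2. In that order they rest on 48, 23, 36, 47 and 35 tags.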
